A study of Mus musculus with 10 samples.

Results

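The genes described here are 10 that p53 is known to act on in programmed cell death: Bbc3, Pmaip1, Bax, Bcl2l1, Apaf1, Pidd1, Fas, Tnfrsf10b, Aen and Trp53inp1. Each p63 peak whose midpoint lay inside one of these genes, or within 50 kb of either of its ends, was taken. That gave 21 of the 8451 deposited peaks, at 9 of the 10 genes, and no peak was counted for more than 1 of them. The genes stood on 7 chromosomes, and 4 of them (Bbc3, Bax, Aen and Pidd1) were on chromosome 7 in separate regions.

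The study's title asks how p63 regulation of the epidermis differs between mouse and human, and the mouse side was measured by chromatin immunoprecipitation and sequencing (ChIP-seq) in the keratinocyte lines MK1 and MK2. The labels give 2 p63 libraries (antibody 4A4), 6 histone mark libraries (H3K4me1, H3K4me3 and H3K27ac) and 2 input libraries, with 1 library of each kind per line and neither a treatment nor a genotype. All values here come from 1 list of peaks, which the labels describe as the result of IDR (irreproducible discovery rate, a filter for peaks that rank alike in replicates) run on both p63 libraries. It holds positions only, so it gives no peak height, no read depth and no spread between MK1 and MK2, and a gene without a peak may be unbound or may have had too few reads. The cell type could not be checked by expression. p63 peaks did lie inside or within 50 kb of keratinocyte genes, with 4 at Krt5, 2 at Krt14, 5 at Itgb4, 11 at Col17a1 and 4 at Trp63. By the same rule 19.7% of all protein-coding genes had at least 2 peaks. Peaks near these genes do not show the cell type.

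p53 and p63 belong to 1 family of transcription factors and bind closely related DNA sites. After DNA damage, p53 raises the expression of genes whose products open the outer membrane of mitochondria, assemble caspase-activating complexes or serve as death receptors at the cell surface. The form of p63 that prevails in basal keratinocytes lacks the long amino-terminal activation domain and can oppose p53 at shared sites, whereas the long form in oocytes is known for activating Bbc3 and Pmaip1 after DNA damage. The 4A4 antibody recognises both forms. Nearness of a peak says nothing on its own about regulation of a gene.

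p63 lay inside or within 50 kb of 9 of the 10 genes. The same rule was met by 40.7% of all 21775 protein-coding genes. The number of peaks was 5 at Bax, 4 at Bcl2l1, 3 each at Pmaip1 and Pidd1, 2 at Aen, 1 each at Bbc3, Apaf1, Fas and Trp53inp1, and 0 at Tnfrsf10b. The median was 1.5 peaks per gene for the 10 genes and 0 for all protein-coding genes, with means of 2.1 and 0.789. At least 2 peaks were found at 5 of the 10 genes and at 19.7% of protein-coding genes, and at least 3 at 4 of the 10 and 9.69% of protein-coding genes. The median length of the 10 genes was 16.1 kb, from 5.21 to 93.4 kb, against a median of 17.2 kb for all protein-coding genes. A median of 2.5 other protein-coding genes, from 0 at Pmaip1 to 11 at Pidd1, reached into the window, against 3. The most crowded windows were those of Pidd1 and Bax, which had 3 and 5 of the 21 peaks. The part of gene length and gene density in the peak counts was not tested.

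**Figure D1:**
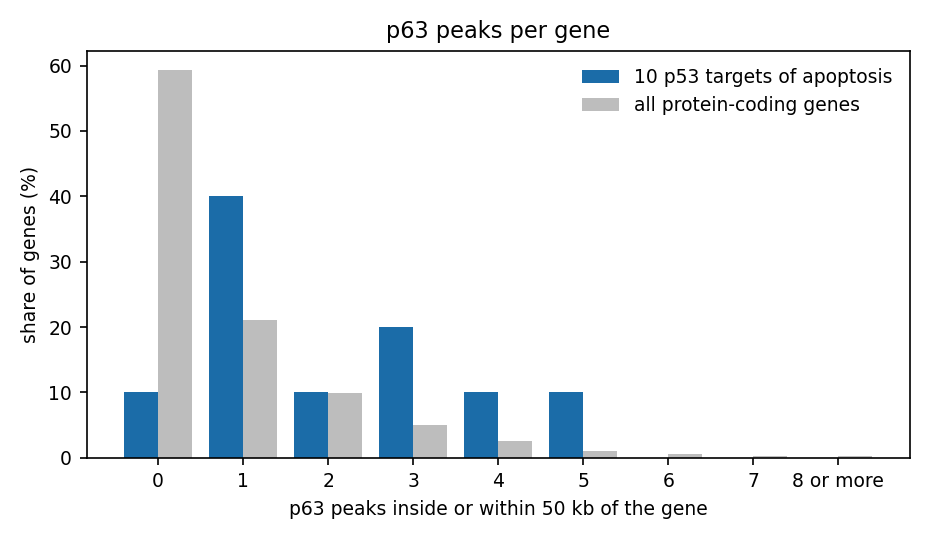
Share of genes (y axis, percent) by the number of p63 peaks inside or within 50 kb (x axis), for the 10 p53 targets of apoptosis (blue) and all 21775 protein-coding genes (grey). Of the 10 genes 1 had 0 peaks, whereas 59.3% of protein-coding genes had 0.

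The genes fell into 3 patterns. At Bbc3, Bax, Aen and Pidd1 a peak lay within 1 kb of an annotated start of transcription, and at Pmaip1 and Trp53inp1 a peak lay within 1 kb of the lower end of the gene. At Fas and Bcl2l1 peaks lay farther off, either outside the gene or deep inside it. Apaf1 and Tnfrsf10b had no peak for which they were the nearest gene. Start sites and strands came from a RefSeq promoter table that matched 7 of the 10 genes (all but Pmaip1, Tnfrsf10b and Trp53inp1). The other positions are given from the lower or upper end of the gene on the chromosome. Of those 7 genes, 4 had a peak midpoint within 1 kb of a start, as did 2.54% of 17491 protein-coding genes with an entry in the table. Within 1 kb of either end, start or not, were peaks at 4 of the 10 genes (Pmaip1, Bax, Aen and Trp53inp1) and at 3.21% of protein-coding genes. A peak lay inside the body of 4 genes (Bbc3, Bax, Bcl2l1 and Pidd1), and of 13.4% of protein-coding genes. The 1 kb limit for start sites and this grouping were chosen after the positions were seen.

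**Figure D2:**
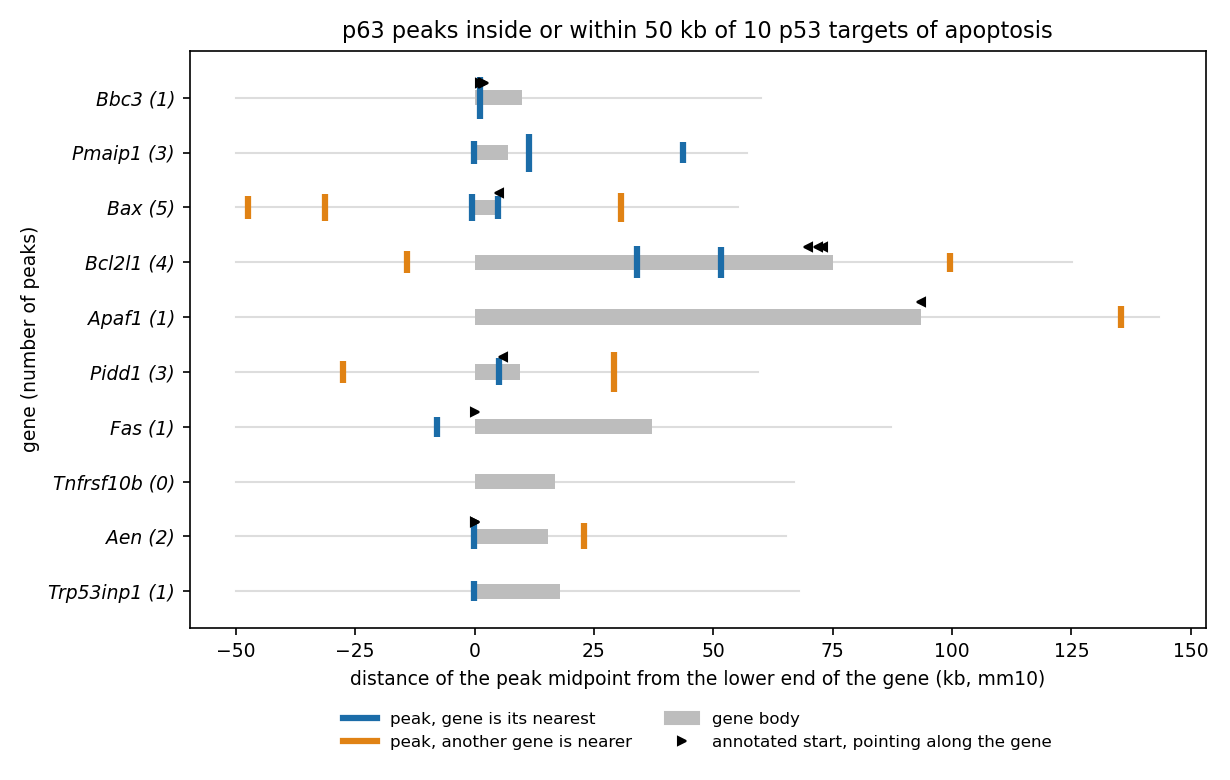
Position of each of the 21 p63 peaks (vertical bars, taller for wider peaks) along the 10 genes, in kb from the lower end of each gene on the chromosome. Grey boxes are gene bodies, thin lines the 50 kb on each side, and arrowheads annotated starts. Blue peaks (12) have the gene as their nearest protein-coding gene, and orange peaks (9) lie nearer to another.

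Bbc3 encodes PUMA, a BH3-only protein of the kind that switches on the mitochondrial route to cell death. It spans chr7:16308398-16318334 on the plus strand. Its single peak, chr7:16309233-16309856, was the widest of the 21 at 624 bp, a width reached by 3.85% of all peaks. It covered 1 of the 3 annotated starts, at 16309583, and its midpoint lay 0.0385 kb before that start. The next peak of the list was 93.9 kb away, so the Bbc3 peak stood alone.

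The sequences at the starts of Bbc3 and Aen are shown because these were the 2 genes, of the 7 with an entry, with a promoter window touched by a peak. That was so for 1.27% of protein-coding genes with an entry. A window runs from 250 bases before a start to 50 after it. Capitals mark the 20 bases that come closest to 2 adjoining decamers of the p53 family, the unit that its DNA sites repeat. The decamer has 10 bases, namely 3 purines, a C, 2 bases that are A or T, a G and 3 pyrimidines. The decamer is its own reverse complement, so 1 scan covers both strands. Sequences are from RefSeq on GRCm38.p6 and are written 5′ to 3′ along the gene. The Bbc3 run is chr7:16309333-16309582, the 250 bases before the start on the plus strand. The Aen run is chr7:78895677-78895956 on the plus strand, the 250 bases before its lower start at 78895927 and the first 30 from it.
Bbc3: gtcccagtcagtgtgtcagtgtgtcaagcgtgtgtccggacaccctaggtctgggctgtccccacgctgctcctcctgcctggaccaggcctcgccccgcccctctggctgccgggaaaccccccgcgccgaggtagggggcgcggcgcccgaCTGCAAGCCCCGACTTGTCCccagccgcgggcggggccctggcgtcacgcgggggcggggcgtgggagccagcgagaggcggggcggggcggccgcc
Aen: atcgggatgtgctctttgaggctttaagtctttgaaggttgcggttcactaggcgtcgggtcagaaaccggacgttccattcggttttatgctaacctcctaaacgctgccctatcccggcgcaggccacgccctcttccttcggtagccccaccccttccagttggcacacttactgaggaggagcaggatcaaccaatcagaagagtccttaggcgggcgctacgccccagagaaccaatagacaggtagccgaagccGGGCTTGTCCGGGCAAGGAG

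In Bbc3 the capitals stand at chr7:16309486-16309505, from 97 to 78 bases before the start. They differ from the pair of decamers at 3 of 20 positions, with 2 in the first 10 bases and 1 in the second 10. Their centre was 49 bp from the midpoint of the peak. In Aen they stand at chr7:78895937-78895956, from base 11 to base 30 of the transcript. The first 10 bases matched the decamer in full and the second 10 differed at 3 positions. Their centre was 59.5 bp from the midpoint of the peak. A run with at most 3 differences was present in 6.29% of all 32817 promoter windows. It was present in 104 of 353 windows touched by a p63 peak (29.5%) and in 1960 of 32464 windows not touched by one (6.04%). Each window was counted separately, so windows of the same gene can share a site and a peak, as those of Aen do. A match in full to 1 decamer was present in 65 of 353 touched windows (18.4%) and in 8.25% of the others, and in 8.36% of all windows. The 4-letter core CATG, which is one form of the centre of the decamer, was present in 57.8% of touched windows, 61.1% of the others and 61.1% of all windows.

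The 7 genes had 12 promoter windows in the table. A run with at most 3 differences was found in 4 of them, which belong to Bbc3, Bax and Aen, the 2 windows of Aen sharing 1 site. With at most 2 differences there was none in the 12 windows, against 0.795% of all windows. At that limit a run was present in 41 of 353 windows touched by a p63 peak (11.6%). Among the 32464 windows not touched by one, it was present in 220 (0.678%). The search for pairs of decamers and both limits were chosen after the sequences had been seen. A decamer matched in full in 3 of the 12 windows, namely that of Bax and both of Aen, and CATG was found in 4. The windows of Fas, Apaf1 and Pidd1 came no closer than 5 differences, and the closest of the 3 windows of Bcl2l1 had 4. No p63 peak touched the windows of Bax, Fas, Apaf1, Pidd1 or Bcl2l1.

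The site of Bax is set beside that of Cd151 because the first lay in no peak and the second in a wide one. Both runs have 10 flanking bases on each side in lower case. The Bax run is chr7:45467080-45467119 on the minus strand, with the capitals from 211 to 192 bases before the start. The Cd151 run is chr7:141467292-141467331 on the plus strand, with the capitals from 60 to 41 bases before the start.
Bax: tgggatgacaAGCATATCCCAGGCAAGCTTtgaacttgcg
Cd151: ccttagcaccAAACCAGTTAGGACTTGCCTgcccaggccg

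The Bax run had 3 differences, all in the first 10 bases, and was in no peak. The Cd151 run had 2 differences, both in the first 10 bases, and its centre was 71.5 bp from the midpoint of a 609 bp peak. A match of this kind is therefore found both with and without a called peak.

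Pmaip1 encodes NOXA, the other BH3-only protein of the list. It spans chr18:66458604-66465558 and had no other protein-coding gene within 50 kb. Its 3 peaks all had Pmaip1 as their nearest gene. One of 300 bp, chr18:66458291-66458590, was centred 0.164 kb below the lower end. The second, chr18:66469638-66470200, was 563 bp wide and 4.36 kb above the upper end, and the third, chr18:66502067-66502332, was 266 bp wide and 36.6 kb above it. The gaps between them were 11.5 kb and 32.3 kb. One more peak fell just outside the limit, at 50.8 kb from Pmaip1 (chr18:66407708-66407932), while the outermost peak that was counted lay 47.4 kb from Bax.

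Bax encodes the pore-forming effector that BH3-only proteins set free at the mitochondrial membrane. It spans chr7:45461695-45466903 on the minus strand and is the shortest of the 10 genes at 5.21 kb. It had the most peaks, 5, a number reached by 2.14% of protein-coding genes. Of these peaks, 2 bracketed the gene. One of 305 bp, chr7:45466406-45466710, had its midpoint 0.340 kb inside the gene from the start at 45466898. The other, of 365 bp, chr7:45461017-45461381, lay 0.496 kb beyond the opposite end. Their midpoints were 5.36 kb apart, the only gap under 10 kb among the 12 gaps at the 10 genes. The other 3 peaks lay inside other genes: Ntf5 at 47.4 kb from Bax, Ruvbl2 at 31.4 kb and Tulp2 at 25.5 kb, with widths of 287, 372 and 399 bp. The window of Bax held 8 other protein-coding genes, the second highest number among the 10.

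Bcl2l1, whose main product BCL-XL holds effectors such as BAX in check, differs from the rest in that it protects cells. It spans chr2:152758732-152833803 on the minus strand, 75.1 kb in all. It had 4 peaks, a number reached by 4.74% of protein-coding genes, and none within 14 kb of an end. The pair inside the gene, chr2:152792479-152792933 and chr2:152810166-152810610, were 455 and 445 bp wide, or wider than the upper quartile of all peaks (392 bp). They lay 17.7 kb apart, and 35.8 and 18.1 kb into the gene from the nearest annotated start. The 2 outer peaks were narrower, at 287 and 227 bp. The first lay 14.1 kb beyond the lower end with Id1 as its nearest gene, at 7.25 kb. The second lay inside Tpx2, 24.5 kb above the upper end of Bcl2l1. Gaps of 48.1 and 47.9 kb separated the outer peaks from the inner pair.

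The 2 genes of caspase-activating complexes differed in where their peaks lay. Apaf1 encodes the scaffold of the apoptosome, on which caspase-9 is activated. It spans chr10:90989311-91082743 and at 93.4 kb is the longest of the 10 genes, but had no peak inside. Its 1 peak, chr10:91124471-91124744, was 274 bp wide and 41.9 kb upstream of the start. It lay 0.562 kb from Slc25a3, which encodes the mitochondrial phosphate carrier. Pidd1 encodes the core of the PIDDosome, which activates caspase-2. It spans chr7:141438113-141447565 on the minus strand and had 11 other protein-coding genes in its window, the most of the 10. A 369 bp peak inside it, chr7:141443105-141443473, had its midpoint 0.736 kb into the gene from the annotated start at 141444025. A second peak of 297 bp lay inside Gatd1, 27.5 kb below Pidd1. The third, chr7:141466936-141467544, was the 609 bp peak whose nearest gene, at 0.122 kb, was Cd151, which encodes a tetraspanin partner of laminin-binding integrins.

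The 2 death receptor genes had 1 peak between them. Fas, which encodes the receptor of Fas ligand, spans chr19:34290647-34327775 on the plus strand. Its peak, chr19:34282596-34282851, was 256 bp wide and 7.94 kb upstream of the start, with Fas as its nearest gene. Tnfrsf10b, which encodes the mouse TRAIL receptor, spans chr14:69767472-69784411. It had no peak inside it or within 100 kb, and the nearest on its chromosome was 385.2 kb away.

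The last 2 genes encode nuclear proteins that p53 induces. Aen encodes an exonuclease that takes part in DNA fragmentation, and spans chr7:78895927-78911209 on the plus strand. A 349 bp peak, chr7:78895713-78896061, covered both of its annotated starts, with its midpoint 0.040 kb below the gene. A second peak of 357 bp, chr7:78918641-78918997, lay inside the neighbouring gene Isg20, 7.61 kb above Aen and 22.9 kb from the first. Trp53inp1 encodes a protein that acts with p53 in stress responses, and spans chr4:11156441-11174379. Its only peak, chr4:11156106-11156364, was 259 bp wide and centred 0.206 kb below the lower end. The nearest other peak was 168.3 kb away, the largest distance among the 21.

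Of the 21 peaks, 12 had the listed gene as their nearest protein-coding gene (57.1%). These 12 belonged to 8 genes, all but Apaf1 and Tnfrsf10b. Peaks at the same gene share a window and are not independent, so the share is given without an interval. The share depends on the window, at 91.7% within 10 kb and 48.3% within 100 kb. Among protein-coding genes, 20.0% were the nearest to some peak inside or within 50 kb. The nearest genes of the other 9 peaks were Ntf5, Ruvbl2, Tulp2, Id1, Tpx2, Slc25a3, Gatd1, Cd151 and Isg20. Widths ran from 256 to 624 bp (median 357) in the 12 peaks and from 227 to 609 bp (median 297) in the other 9, so the ranges overlapped almost throughout.

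The widths of the 21 peaks lay within the range of the list as a whole (138 to 1494 bp). Their median was 349 bp, with quartiles of 287 and 399 bp. The median of all peaks was 305 bp, with quartiles of 242 and 392 bp. A width of 500 bp or more was reached by 3 of the 21 peaks (at Bbc3, at Pmaip1, and the one at Cd151 near Pidd1) and by 10.8% of all peaks. The 5 peaks within 1 kb of an end of the listed gene were 259 to 365 bp wide. The Bbc3 peak lay 1.15 kb above the lower annotated end and is not among these 5.

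**Figure D3:**
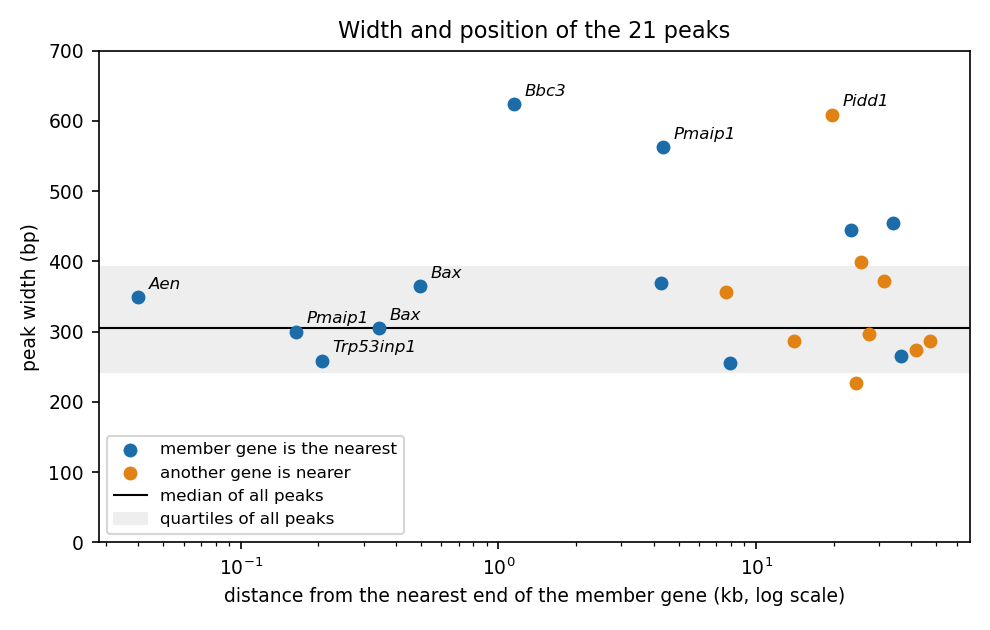
Width of the 21 p63 peaks (y axis, bp) against the distance of the midpoint from the nearest end of the listed gene (x axis, kb, log scale). Blue points (12) have that gene as their nearest, orange points (9) another. Labels name the listed gene of peaks of at least 500 bp or within 1 kb of an end. The line is the median of all 8451 peaks (305 bp) and the shaded band their quartiles (242 to 392 bp).

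Few of the 21 peaks stood in tight groups. Measured to the closest other peak of the list, the median distance was 24.0 kb, from 5.36 kb at Bax to 168.3 kb at Trp53inp1. For all peaks the median was 28.4 kb. Another peak within 10 kb was found for 2 of the 21 (9.52%), both at Bax, and for 29.1% of all peaks. The 12 gaps between neighbouring peaks of 1 gene had a median of 24.9 kb. The distance of the 21 peaks to gene ends was bounded by the rule that chose them, so it is given as a description only. Their median distance to the nearest end of the listed gene was 14.1 kb, and 5 of the 21 (23.8%) were within 1 kb of it. To the nearest end of any protein-coding gene, listed or not, the median was 1.58 kb. By that measure 9 of the 21 (42.9%) were within 1 kb of an end. Among all 7185 peaks of the list inside or within 50 kb of a protein-coding gene, the median to any such end was 12.6 kb. Of them 9.16% were within 1 kb of an end. This set of peaks was chosen after the distances had been seen.

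The count of genes with a peak was 8 or 9 with each window tried. Within 10 kb, 8 of the 10 genes had a peak against 21.3% of protein-coding genes, within 25 kb 8 against 29.7%, and within 100 kb 9 against 55.2%. When all 49599 annotated genes were taken, 33.2% had a peak within 50 kb. The 8 genes within 10 kb left out Apaf1 and Tnfrsf10b.

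Lists of related genes put these counts beside the rest of the pathway. Of 12 other p53 targets with a part in apoptosis, 12 had a peak within 50 kb, with a median of 1 per gene. The share among all protein-coding genes was 40.7%. When a peak counted only for its nearest gene, 8 of these 12 targets had one, beside 20.0% of protein-coding genes. With a window of 10 kb the count was also 8, beside 21.3% of protein-coding genes. Perp, which encodes a desmosomal protein, had 6 and Phlda3, which encodes an inhibitor of AKT, had 3. Of 12 p53 targets of cell cycle arrest and feedback, 10 had a peak, with a median of 3.5, and 10 were the nearest gene of one. Sfn, which encodes 14-3-3 sigma, had 6 and Btg2 had 4. Of 23 genes of the death machinery that were not listed as p53 targets, 12 had a peak (52.2%), with a median of 1. Of these, 8 were the nearest gene of a peak. Bad and Bak1, which encode members of the BCL-2 family, had 4 each. The 4 peaks at Bak1 all had another gene as their nearest, whereas Bad was the nearest to at least 1 of its 4. A peak within 1 kb of a gene end was found at 4 of the 10 genes described here, 4 of the 12 other apoptosis targets, 7 of the 12 arrest and feedback genes and 2 of the 23 genes of the machinery, beside the 3.21% of protein-coding genes given above. No difference between these lists was tested.

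**Figure D4:**
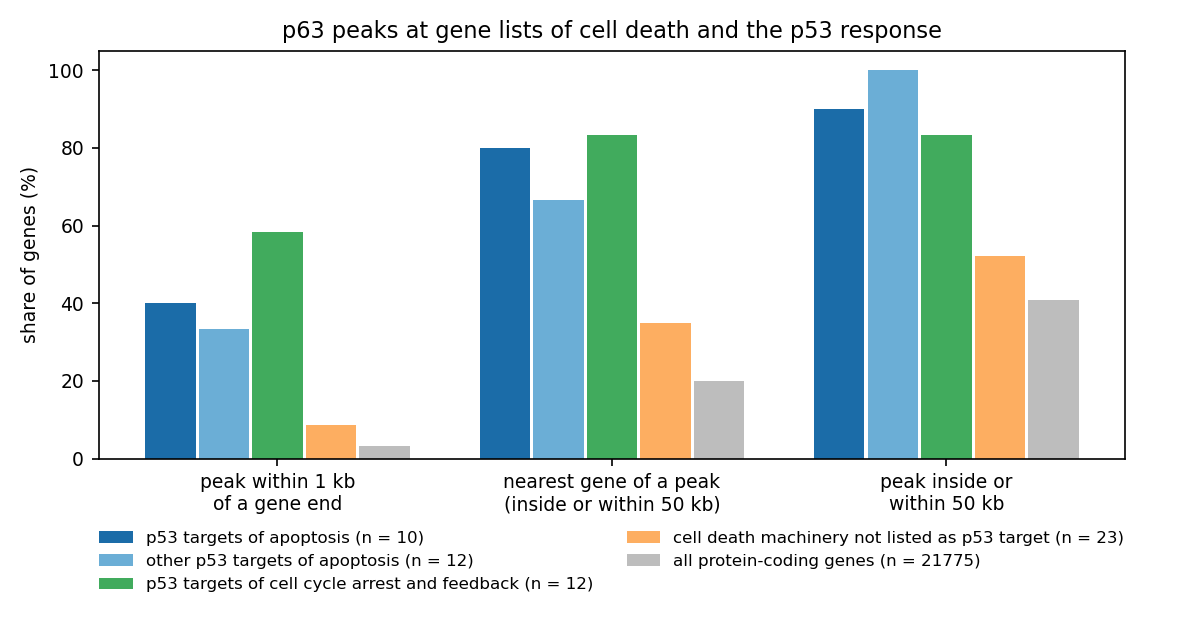
Share of genes (y axis, percent) with a p63 peak within 1 kb of an end, as the nearest gene of a peak, or with a peak inside or within 50 kb, for the 10 genes described here, 3 related lists and all protein-coding genes (grey). For the 10 genes the shares are 40, 80 and 90%, and for all protein-coding genes 3.21, 20.0 and 40.7%.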

How the data were processed

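Per the labels' protocols, chromatin of MK1 and MK2 cells was sonicated, precipitated with the 4A4 antibody and sequenced as 50 bp single-end reads. Bowtie 1.1.1, SAMtools 1.1 and the build mm10 stand in the submitters' processing notes. For the peak caller and the thresholds, values are not given in the sources used. The deposited list has 3 columns (chromosome, start, end), and its starts were taken as 0-based and turned into 1-based positions. Edges of peaks from single-end reads are inferred, which limits how exactly a midpoint marks a site.

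Genes came from the RefSeq table of GRCm38.p6, the same coordinates as mm10. Of 49939 rows, 340 that ended below 3 Mb (Y excepted) were left out as scaffold positions. Start sites and promoter sequences came from a RefSeq table of that assembly. Distances are those of midpoints. A peak inside several genes was given to the one with the nearest end.

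The genes, lists and measures were chosen with earlier results of these data known, so shares are descriptions without a test. The text names the 10 genes, the nearest gene of each peak and the 2 genes of each list with most peaks, ties alphabetically. Alternatives covered the window, how a peak counts, nearest genes, peak width and the background. Counting and motif steps were checked on simulated data. Python 3.11.15, pandas 2.3.3 and scipy 1.17.1 were used. Histone mark and input libraries were not analysed here.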

Additional observations from a re-analysis of the deposited data

How the results depend on the processing

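The number of the 10 genes with a peak stayed between 6 and 9 under the 7 alternatives tried for it, with 6 where only peaks at least as wide as the median counted. That rule kept 12 of the 21 peaks and 26.2% of protein-coding genes, and 5 of the 12 other apoptosis targets. The number of peaks was also 12 within 10 kb, and 12 when a peak counted only for its nearest gene. Within 10 kb, the listed gene was the nearest for 91.7% of peaks in place of 57.1%; a smaller window leaves out peaks near other genes by construction. Within 100 kb, 19 of 23 genes of the death machinery had a peak in place of 12, while the share of protein-coding genes with a peak was 55.2% in place of 40.7%. Counting a peak by 1 bp of overlap or only when whole left the 21 peaks as they were. Median width ran from 300 to 361 bp and median spacing from 20.3 to 24.0 kb, beside 349 bp and 24.0 kb in the main setting. The settings reuse the same peaks in part, so these ranges do not measure a spread.

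No paired analysis was possible because the deposited list joins MK1 and MK2, so neither library was left out in turn. Read depth is unknown, which limits what a missing peak can show. The promoter windows hold only 300 bases each, so sites in peaks away from a start, such as those at Fas and Bcl2l1, were not searched. Pmaip1 and Trp53inp1 had no promoter entry, so no sequence at their peaks was searched, including those close to a gene end.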
